A study of Mus musculus with 9 samples.

Results

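The adenylate cyclases examined here are the 9 membrane enzymes that make cyclic AMP (cAMP), encoded by Adcy1 to Adcy9. They were taken by name from the 56941 gene rows of the count table, and all 9 passed the filter on low counts that left 18548 genes for testing. The family was singled out because Adcy1 was among the genes with the largest difference between ketogenic and low fat diets in these same libraries. The values of Adcy1 are therefore given as a description with no test, and the other 8 members were added by family name.

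The libraries came from islet RNA of male wild-type C57Bl/6J mice that started a diet at 15 weeks of age and stayed on it for 9 months. There were 3 samples from LFD, the control diet low in fat (10%), 2 from HFD, a diet high in fat (60%), and 4 from KD, a ketogenic diet in which fat made up 89.9%. The labels do not say whether a sample is 1 mouse or a pool, so p-values measure the spread between these samples. Library totals ran from 15513502 to 26588390 counts. All 10 beta cell markers and all 5 alpha cell markers were detected on each diet, as islets require. Their shares of counts differed between libraries. Beta cell markers took 5.72% to 9.485% of counts on LFD, 11.63% to 12.91% on HFD and 1.68% to 12.84% on KD. Alpha cell markers took 0.9451% to 1.147% on LFD, 0.89% to 1.14% on HFD and 0.4275% to 1.984% on KD. Acinar markers, which belong to the enzyme-secreting tissue around islets, took 14.8% to 34.9% of counts on LFD, 11.1% to 18.6% on HFD and 20% to 59.2% on KD. Levels are given as CPM, counts divided by a library size that TMM scaled so that most genes are equal between libraries.

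Membrane adenylate cyclases convert ATP to cAMP when receptors coupled to the stimulatory G protein Gs are engaged, and receptors coupled to Gi hold them back. In beta cells, cAMP made after incretin binding acts through protein kinase A and the Epac exchange factors to raise glucose-stimulated insulin secretion. The isoforms differ in what else they sense. Adcy1, Adcy3 and Adcy8 are stimulated by calcium with calmodulin, Adcy2, Adcy4 and Adcy7 respond to G protein beta-gamma subunits, Adcy5 and Adcy6 are inhibited by calcium, and Adcy9 is the most divergent membrane isoform.

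Because the isoforms are paralogs, the transcripts were compared for shared stretches. No run of 50 bases was shared between any 2 members in GENCODE M21. Adcy8 shared 23 of 8150 such runs (0.282%) with other genes, and each of the other 8 members shared 0 with any gene. Adcy2, Adcy3, Adcy5, Adcy6, Adcy8 and Adcy9 overlap another gene model there, mostly on the opposite strand, so their counts are less certain because the strand setting of the counting is not known. Adcy1, Adcy4 and Adcy7 overlap none.

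The sequence upstream of Adcy1 is shown because this member had the largest difference between diets. The 250 bases before its RefSeq start are on the plus strand at chr11:7063183-7063432 of GRCm38.p6, which is not the GRCm39 build named for the counts. Capitals mark an E-box (CACGTG, the letters that basic helix-loop-helix factors recognise) and GC boxes (GGGCGG, the letters of Sp1-type sites, on either strand).

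Adcy1 upstream: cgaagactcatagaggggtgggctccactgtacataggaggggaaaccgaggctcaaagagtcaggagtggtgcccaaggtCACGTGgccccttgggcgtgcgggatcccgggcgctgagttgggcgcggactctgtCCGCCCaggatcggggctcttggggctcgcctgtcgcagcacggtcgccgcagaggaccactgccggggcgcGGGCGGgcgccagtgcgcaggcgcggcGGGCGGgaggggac

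In these 250 bases there were 3 GC boxes, and the E-box began 169 bases before the start. Over the 300 bases held for each RefSeq start, which run 50 bases past it, Adcy1 had 5 GC boxes and 1 E-box. Of 32851 such windows, 35.7% held at least 1 GC box and 7.15% an E-box. The cAMP response element TGACGTCA was in 1.79% of windows and its core TGACG in 20.8%, both strands counted, and the core is contained in the full element. Promoters were found for 7 of the 9 members (10 windows), not for Adcy6 or Adcy8. None of these 10 windows held the full element. The core was in 1 of the 3 Adcy7 windows and in that of Adcy9, and not in the others. GC boxes were not particular to Adcy1, as the Adcy9 window also held 5, that of Adcy5 held 4 and that of Adcy2 held 3.

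Per kilobase of exon (RPKM, the CPM divided by the gene model's exon length), Adcy6 and Adcy9 were the main cyclase transcripts in these libraries. Which cell types they came from was not tested. On LFD, Adcy6 measured 14.1 ± 1.04 RPKM and Adcy9 13.5 ± 2.54 RPKM (SD, n = 3). The next members, Adcy7 and Adcy4, measured 1.85 ± 0.588 and 1.85 ± 0.672 RPKM (SD, n = 3). Below them came Adcy5 at 1.10, Adcy3 at 0.778, Adcy2 at 0.560, Adcy1 at 0.300 and Adcy8 at 0.0904 RPKM. The ranges of the 3 libraries overlapped for each pair of neighbours in that order from Adcy6 to Adcy2, except between Adcy9 and Adcy7. They did not overlap between Adcy2 and Adcy1 or between Adcy1 and Adcy8.

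Adcy1 held rank 8 of 9 on LFD and HFD and rank 3 on KD, where it measured 1.62 ± 0.561 RPKM (SD, n = 4) beside Adcy4 at 1.56 ± 0.397 RPKM. The Adcy1 and Adcy4 ranges overlapped on KD. Adcy7 held rank 3 on LFD, rank 5 on HFD and rank 7 on KD. Adcy6 and Adcy9 together took 77.4% to 86.0% of the summed per-length level of the 9 members on LFD, 78.7% and 82.3% on HFD and 79.6% to 87.0% on KD. Summed over the family, the level was 34.11 ± 0.7502 RPKM in the LFD libraries, 30.8 ± 2.99 in the HFD libraries and 37.3 ± 5.07 in the KD libraries (SD, n = 3, 2 and 4).

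A share of the family does not depend on how libraries are scaled. The Adcy1 share in the LFD libraries was 1.07%, 0.512% and 1.07%, and HFD gave 1.55% and 0.844%. In KD replicates 1 to 4 it was 3.25%, 5.33%, 2.49% and 6.90%, each above every LFD and HFD library. The Adcy7 share was 5.75%, 6.86% and 3.61% on LFD, 3.65% and 2.12% on HFD, and 1.83%, 2.04%, 1.17% and 1.51% on KD, where every library was below every other one.

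**Figure D1:**
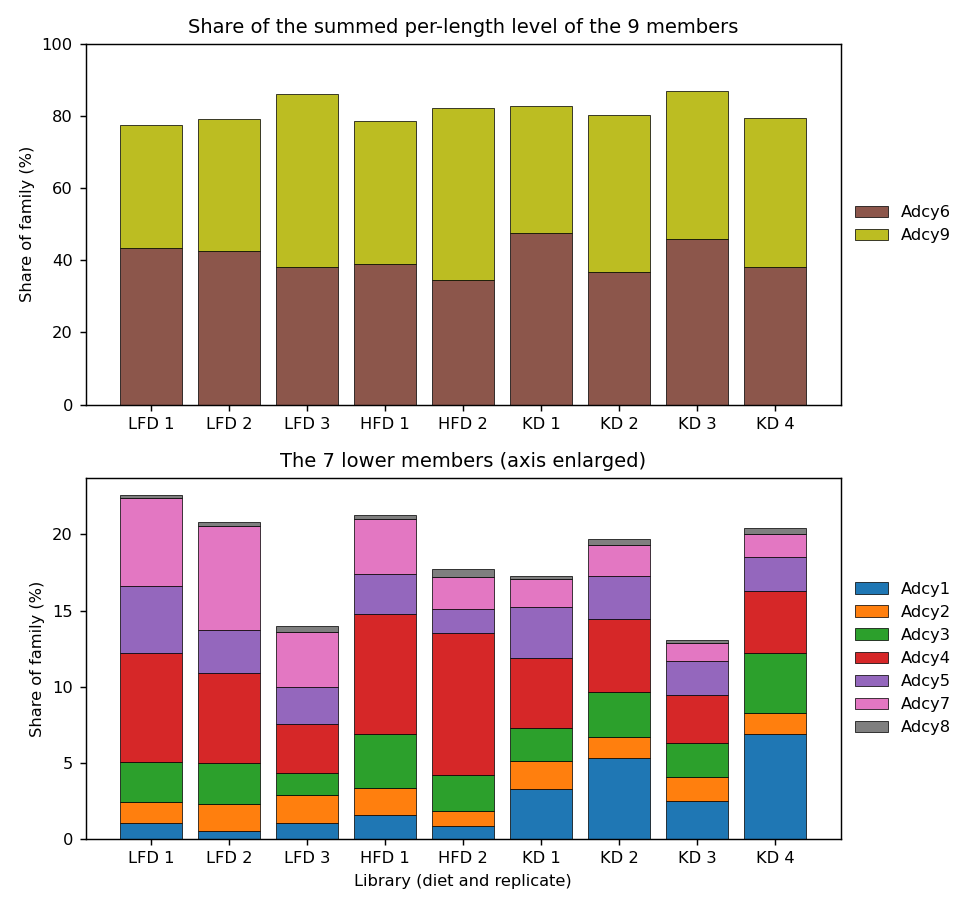
Share of the summed per-length level of the 9 adenylate cyclases (%, vertical axis) in each library (horizontal axis), with Adcy6 and Adcy9 above and the 7 lower members below on an enlarged axis. Adcy6 and Adcy9 took 77.4% to 87.0% in every library, and the Adcy1 segment was larger in each KD library (2.49% to 6.90%) than in any other library (at most 1.55%).

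Among the members stimulated by calcium with calmodulin, Adcy1 (ENSMUSG00000020431) was the one that differed most between diets. It measured 4.48, 2.24 and 4.55 CPM in LFD replicates 1 to 3, 5.55 and 3.48 CPM in the HFD libraries, and 17.97, 23.7, 11.7 and 27.8 CPM in KD replicates 1 to 4. Even the lowest KD library lay well above the highest library of the other diets. The level on KD was 5.45-fold that on LFD (log2 fold change 2.45, SE 0.35, 95% interval 1.67 to 3.22). Because Adcy1 was chosen for this difference, the fold may be too large. The interval describes these libraries and cannot serve as a test. On KD against HFD the log2 fold change was 2.18 (SE 0.40), and on HFD against LFD it was 0.27 (SE 0.40), 2 contrasts that share libraries with the one Adcy1 was chosen on.

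Acinar markers took 59.2%, 43.7%, 55.02% and 20% of counts in KD replicates 1 to 4. The KD libraries with the lower acinar shares, replicates 2 and 4, had the higher Adcy1 levels. They also had the highest beta cell marker shares on KD (5.08% and 12.84%) and the highest alpha cell marker shares (0.9276% and 1.984%). On HFD the order was the other way, with 5.55 CPM at an acinar share of 18.58% and 3.48 CPM at 11.11%. On LFD replicates 1 and 3 had near-equal Adcy1 levels at acinar shares of 34.87% and 14.81%. The part of acinar, beta cell or alpha cell RNA in the Adcy1 levels was not tested beyond the covariate below. With the acinar score as a covariate the KD minus LFD log2 fold change of Adcy1 was 2.67 (SE 0.35). With a lymphocyte score it was 1.55 with an SE of 1.12. The lymphocyte score ran from 1.03 to 3.499 on LFD and from -2.45 to -1.76 on KD, so that score and diet cannot be told apart in these libraries.

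Adcy3 (ENSMUSG00000020654), known for its part in olfactory cilia, measured 5.52, 5.92 and 3.14 CPM on LFD, 6.30 and 4.78 on HFD and 5.99, 6.50, 5.17 and 8.02 on KD. The ranges overlapped between all diets. Its KD minus LFD log2 fold change was 0.41 (95% interval -0.17 to 0.99, edgeR adjusted p 0.384). Adcy8 (ENSMUSG00000022376), a calcium-responsive isoform studied in beta cells, was the lowest member, with 6 to 30 counts per library. Its mean ± SD was 0.737 ± 0.258 CPM over the 3 LFD libraries, 0.904 ± 0.4998 over the 2 HFD libraries and 0.928 ± 0.308 over the 4 KD libraries. Its KD minus LFD interval of -0.70 to 1.41 on the log2 scale includes a rise of more than 2-fold.

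**Figure D2:**
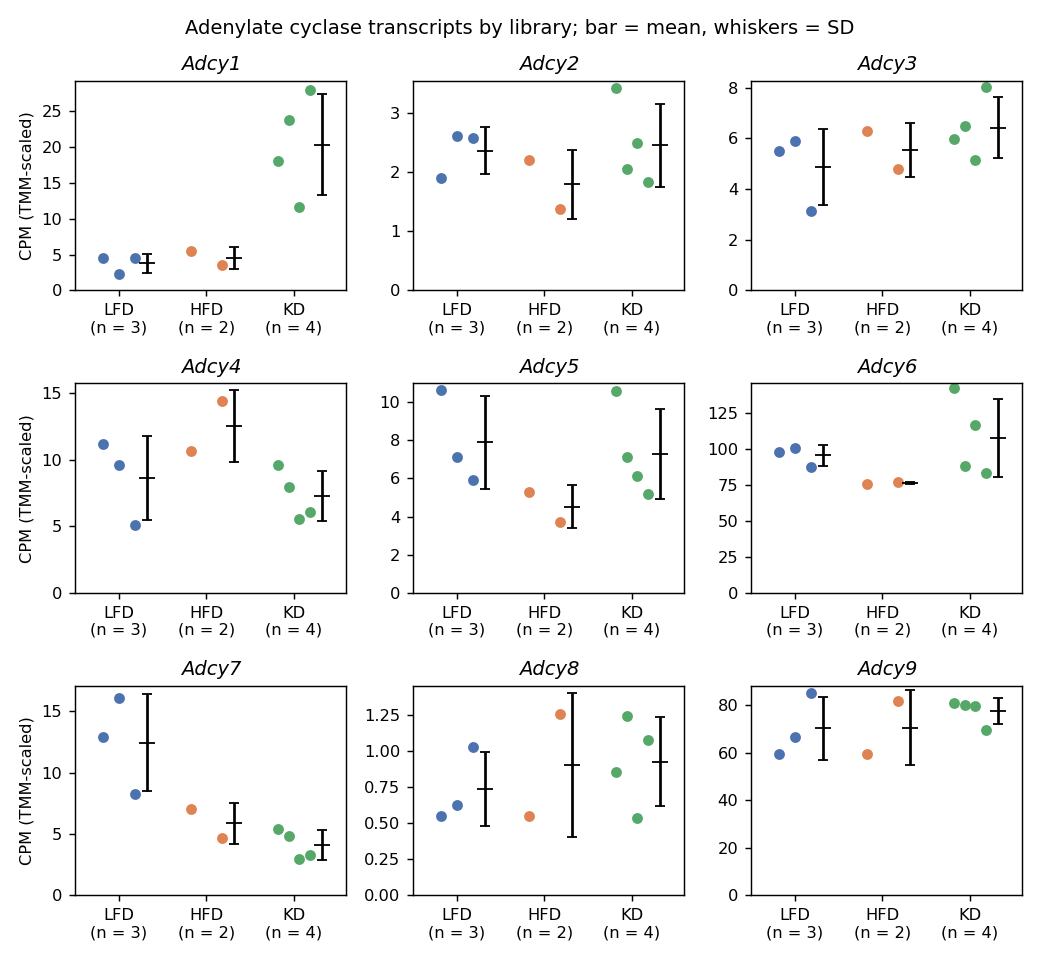
CPM on TMM-scaled library sizes (vertical axes, from 0) of the 9 adenylate cyclases by diet, with 1 point per library, the mean as a bar and the SD as whiskers. The 4 KD points of Adcy1 lie between 11.7 and 27.8 CPM, above all others, and those of Adcy7 lie between 2.94 and 5.45 CPM.

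Among the members that respond to beta-gamma subunits, Adcy7 (ENSMUSG00000031659), an isoform abundant in blood cells, fell on KD. It measured 12.9, 16.1 and 8.25 CPM in LFD replicates 1 to 3, 7.05 and 4.69 in the HFD libraries, and 5.45, 4.86, 2.94 and 3.27 in KD replicates 1 to 4. Every KD library was below every LFD library, and the KD and HFD ranges overlapped. The KD minus LFD log2 fold change was -1.59 (SE 0.29, 95% interval -2.23 to -0.95), with an edgeR quasi-likelihood adjusted p of 0.0172 over all genes tested. The call was lost without LFD replicate 1 (edgeR adjusted p 0.0599), LFD replicate 2 (0.0652) or KD replicate 3 (0.0567), where the share of all genes called was 0.97%, 1.24% and 0.822%. Over all alternatives the adjusted p ran from 5e-05 to 0.953.

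Lymphocyte markers were highest on LFD and lowest on KD. The 12 lymphocyte markers summed to 46.6 to 216 CPM on LFD, 18.02 to 22.6 on HFD and 3.83 to 8.48 on KD. By the edgeR test 11 of the 12 were lower on KD than on LFD, a test that called 3.14% of all genes as lower. The 9 macrophage markers summed to 78.9 to 140 CPM on LFD, 96.0 to 127 on HFD and 39.4 to 74.3 on KD, with 1 of the 9 lower on KD. Their HFD sums were within the LFD range, as were those of the fibroblast and stellate markers. The 7 duct markers summed to 395 to 497 CPM on LFD, 262 and 284 on HFD and 273 to 409 on KD, with 3 of the 7 lower on KD. The 8 fibroblast and stellate markers summed to 419.5 to 736 CPM on LFD, 473 and 604 on HFD and 203.5 to 420.5 on KD, with none called. None of these markers was without counts on any diet. LFD replicate 2 had both the highest lymphocyte sum and the highest Adcy7 level. The macrophage, duct, and fibroblast and stellate sums were highest in LFD replicate 1. With the lymphocyte score as a covariate the KD minus LFD log2 fold change of Adcy7 was 0.14 (SE 0.77, edgeR adjusted p 0.953), in a fit that called 0.0% of all genes in this contrast. The part of other cell types in the Adcy7 levels was not tested beyond this. In RNA from whole islets, fewer cells of a type and less RNA per cell cannot be told apart.

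Adcy4 (ENSMUSG00000022220), which is known from endothelium, measured 11.2, 9.59 and 5.11 CPM on LFD, 10.6 and 14.4 on HFD, and 9.57, 7.98, 5.52 and 6.05 on KD. Both HFD libraries lay above all KD libraries and within or above the LFD range. The log2 fold changes of Adcy4 from edgeR were -0.24 between KD and LFD (SE 0.28) and 0.54 between HFD and LFD (SE 0.33), with adjusted p of 0.653 and 0.591. Between KD and HFD the value was -0.78 (SE 0.31, edgeR adjusted p 0.174). The 10 endothelial markers summed to 467 to 597 CPM on LFD, 812 and 869 on HFD and 432 to 677 on KD. Both HFD sums lay above those of all other libraries. None of the 10 passed the edgeR test for KD against LFD, where 4.12% of all genes did. For HFD against LFD and KD against HFD edgeR called 0.0% of all genes, so no marker could pass there. None of the 10 was without counts. The part of endothelial RNA in the Adcy4 levels was not tested.

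Adcy2 (ENSMUSG00000021536), best known from brain, had a mean ± SD of 2.36 ± 0.398 CPM over the 3 LFD libraries, 1.79 ± 0.579 over the 2 HFD libraries and 2.45 ± 0.704 over the 4 KD libraries. The libraries of the diets overlapped in every contrast, and the KD minus LFD log2 fold change was 0.04 (95% interval -0.68 to 0.75, edgeR adjusted p 0.962).

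**Figure D3:**
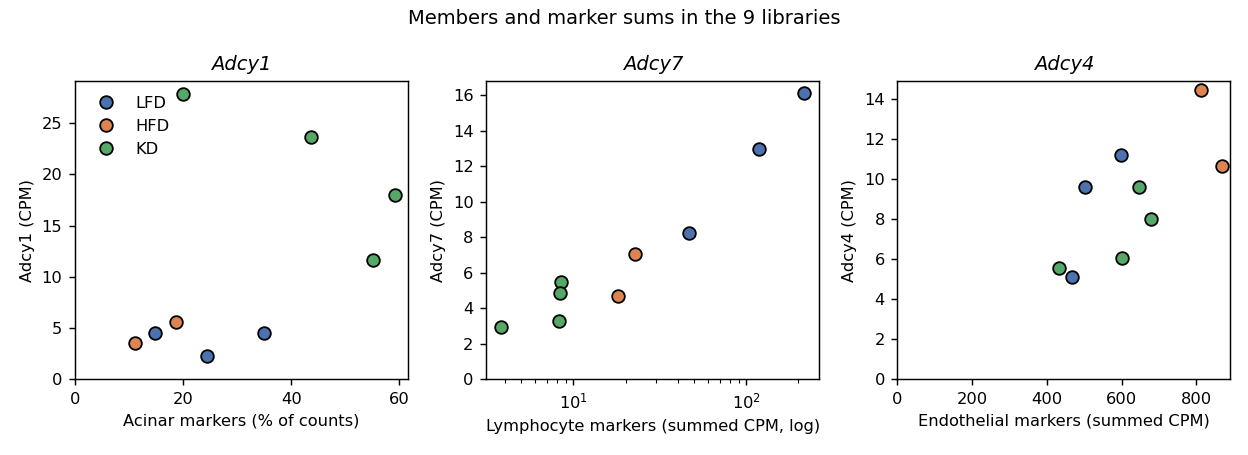
Levels of Adcy1, Adcy7 and Adcy4 (CPM, vertical axes) against marker sums in the 9 libraries, coloured by diet, namely acinar markers (% of counts), lymphocyte markers (summed CPM, log axis) and endothelial markers (summed CPM). Adcy1 was highest in the KD library with the lowest acinar share (20%), while on HFD it was lower in the library with the lower acinar share (11.11%). Adcy7 was highest in the LFD library with the highest lymphocyte sum (216 CPM).

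The calcium-inhibited pair, which in many tissues carries hormone-stimulated cAMP production, did not pass the test in any contrast. Adcy6 (ENSMUSG00000022994) measured 98.3, 101 and 87.7 CPM on LFD, 75.8 and 77.1 on HFD, and 142, 88.5, 117 and 83.5 on KD. The HFD libraries were the lowest. The high KD values were those of replicates 1 and 3, the KD libraries with the largest acinar shares. The log2 fold change of Adcy6 was 0.17 between KD and LFD (95% interval -0.22 to 0.56, edgeR adjusted p 0.603) and 0.50 between KD and HFD (SE 0.21, adjusted p 0.189). With the acinar score as a covariate these were -0.10 and -0.0036. That score was 10.852 and 11.793 on HFD and ran from 11.916 to 14.475 on KD. Score and diet therefore cannot be told apart between KD and HFD. The part of acinar RNA in the Adcy6 levels was not tested beyond this.

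Adcy5 (ENSMUSG00000022840) measured 10.6, 7.13 and 5.91 CPM on LFD, 5.30 and 3.73 on HFD, and 10.6, 7.13, 6.15 and 5.20 on KD. Both HFD libraries were below all LFD libraries, and the KD and LFD libraries spanned nearly the same range. HFD minus LFD, the log2 fold change of Adcy5 was -0.80 (SE 0.35, unadjusted p 0.0436, edgeR adjusted p 0.489). KD minus LFD it was -0.12 (95% interval -0.75 to 0.51, edgeR adjusted p 0.844).

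Adcy9 (ENSMUSG00000005580), which is insensitive to the plant compound forskolin that activates the other membrane isoforms, had the narrowest interval of the family. It measured 59.2, 66.3 and 84.8 CPM on LFD, 59.2 and 81.7 on HFD, and 81.0, 80.0, 79.7 and 69.3 on KD. The ranges overlapped in every contrast. The KD minus LFD log2 fold change was 0.14 (95% interval -0.20 to 0.49, edgeR adjusted p 0.624), so the interval leaves out a 2-fold change in either direction. Adcy10, the soluble cyclase outside the family, had 0 to 3 counts per library and was not tested.

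Counted over the 8 members other than Adcy1, 1 was past the edgeR threshold of adjusted p below 0.05 for KD against LFD, Adcy7, which was lower. Over all genes the share called was 4.12%, with 0.981% higher and 3.14% lower, and nothing is read from the comparison because the family was chosen through this contrast. The libraries of these diets did not overlap for 1 of the 8, against 19.7% of all genes. The median log2 fold change was 0.09 over the 8 members and -0.02 over all genes.

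For HFD against LFD, edgeR called 0 of the 8, where it called 0.0% of all genes. Adcy5 and Adcy7 had an unadjusted p below 0.05, against 9.99% of all genes. DESeq2 and limma-voom called 0 of the 8 each, and 1.45% and 0.0593% of all genes. Adcy7 differed by -1.08 on the log2 scale (SE 0.35, edgeR adjusted p 0.381). HFD and LFD libraries did not overlap for 3 of the 8 (Adcy5, Adcy6 and Adcy7, each lower on HFD), against 27.5% of genes. The medians were -0.16 over the 8 members and -0.0017 over all genes.

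For KD against HFD, edgeR called 0 of the 8 and 0.0% of all genes. Adcy4 and Adcy6 had an unadjusted p below 0.05, against 22.7% of all genes. DESeq2 and limma-voom called 0 of the 8 each, and 8.19% and 0.0% of all genes. KD and HFD libraries did not overlap for 2 of the 8 (Adcy4 and Adcy6), against 33.9% of genes. The medians were 0.18 over the 8 members and -0.04 over all genes. The 3 contrasts share libraries and are not independent of each other.

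**Figure D4:**
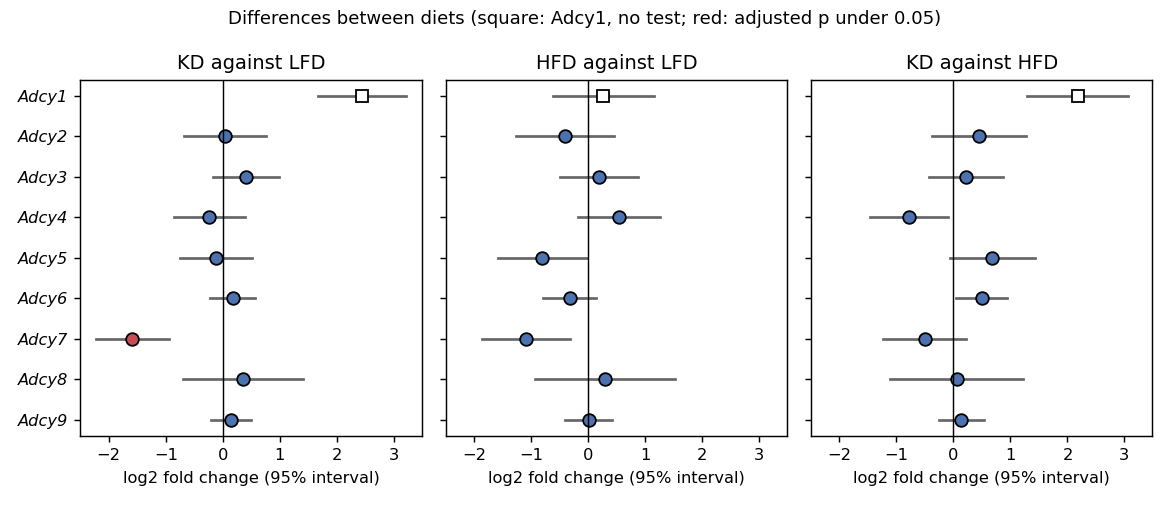
Log2 fold changes of the 9 members with 95% intervals (horizontal axes) in the 3 contrasts, from the edgeR fit. Squares stand for Adcy1, which was chosen for its KD against LFD difference and given no test, so its intervals are a description. The red point marks Adcy7 for KD against LFD (-1.59), the member tested that passed.

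The rest of the pathway was followed with a list of 98 genes in 7 groups, of which 91 were tested. For KD against LFD, 8 of the 91 passed the edgeR test, 1 higher and 7 lower, where 4.12% of all genes passed. The list was chosen with earlier results of these data known, so nothing is read from this comparison. The median log2 fold change of the 91 was -0.06, against -0.02 over all genes. KD and LFD libraries did not overlap for 19 of the 91, against 19.7% of all genes. The genes named below were picked by p, so gaps between their libraries are given as a description. Leaving out KD replicate 3 gave a count of 3 (0.822% of all genes called), and leaving out LFD replicate 2 a count of 4 (1.24%). Omitting LFD replicate 1 or KD replicate 2 gave 5 each (0.97% and 1.08%), and omitting KD replicate 4 gave 16 (7.4%). The pathway count and the count over all genes thus moved in the same direction.

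Among receptors, 1 of 12 Gs-coupled genes and 0 of 8 Gi-coupled genes passed. That gene was Gpr119, a lipid-sensing receptor that raises cAMP in beta cells. It measured 19.6, 20.7 and 20.1 CPM on LFD, 12.5 and 17.8 on HFD, and 7.39, 12.1, 7.39 and 11.02 on KD. Every LFD library was above every library of the other diets. The KD minus LFD log2 fold change of Gpr119 was -1.07 (SE 0.21, edgeR adjusted p 0.0215), and the call was lost without LFD replicate 1 (0.0723), LFD replicate 2 (0.0648) or KD replicate 3 (0.0641).

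Of 13 genes for G proteins and their regulators, Rgs4 passed. It encodes a protein that speeds the shut-off of Gi and Gq subunits. Rgs4 measured 28.4, 39.3 and 28.3 CPM on LFD, 26.7 and 30.04 on HFD, and 13.5, 15.95, 10.5 and 19.9 on KD, where each library was below all others. KD minus LFD, Rgs4 changed by -1.09 on the log2 scale (SE 0.21, edgeR adjusted p 0.0200). The edgeR adjusted p of Rgs4 was 0.0700 without LFD replicate 2. Omitting KD replicate 2 gave 0.0557 and omitting KD replicate 3 gave 0.0517 (edgeR adjusted p).

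Of 21 effector genes, Prkaca passed. It encodes a catalytic subunit of protein kinase A, the main kinase activated by cAMP. Prkaca measured 51.6, 57.4 and 55.4 CPM on LFD, 51.6 and 61.9 on HFD, and 79.5, 81.3, 74.0 and 80.2 on KD. Each KD library lay above every library of the other diets. The difference was 0.52 on the log2 scale (SE 0.11, edgeR adjusted p 0.0308). The edgeR adjusted p of Prkaca was between 0.0604 and 0.147 without LFD replicate 1, LFD replicate 2, KD replicate 1, KD replicate 2 or KD replicate 3. On raw library size it was -0.05, where the median of all genes was -0.59.

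Of 17 genes for cAMP breakdown and export, Abcc5, a transporter of cyclic nucleotides, passed. It measured 70.5, 76.4 and 110 CPM on LFD, 76.0 and 80.7 on HFD, and 43.8, 47.5, 41.0 and 48.1 on KD, below all other libraries. Abcc5 changed by -0.93 on the log2 scale (SE 0.16, edgeR adjusted p 0.0125, or 0.0506 without KD replicate 3). None of the 15 phosphodiesterase genes tested was called. None of 11 genes for CREB factors and their coactivators passed.

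Of 9 genes known to be induced through cAMP and CREB, 4 passed as lower on KD and none as higher. Over all genes 3.14% passed as lower and 0.981% as higher. Nothing is read from this comparison, because the group was chosen with earlier results of these data known. The log2 fold change was above 0 for 3 of the 9 and below 0 for 6. The 4 that passed were Fos, Dusp1, Nr4a3 and Nr4a1, immediate-early genes that also respond to calcium, growth factors and cell stress. Fos measured 173, 162 and 106 CPM on LFD, 64.9 and 84.4 on HFD, and 57.0, 42.0, 43.9 and 40.6 on KD. The LFD libraries were highest and the KD libraries lowest, with no overlap between diets. KD minus LFD, Fos changed by -1.68 on the log2 scale (SE 0.19, edgeR adjusted p 0.00237).

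Dusp1, a phosphatase of MAP kinases, measured 120, 96.3 and 59.4 CPM on LFD, 33.1 and 38.6 on HFD, and 33.7, 33.6, 17.1 and 27.4 on KD (log2 fold change -1.71, SE 0.26, edgeR adjusted p 0.0104). Every LFD library was above the other diets. Nr4a3, an orphan nuclear receptor, measured 14.7, 16.2 and 3.10 CPM on LFD, 2.45 and 4.19 on HFD, and 1.56, 1.47, 1.51 and 1.03 on KD (log2 fold change -3.03, SE 0.49, edgeR adjusted p 0.0124). Nr4a3 in LFD replicate 3 was within the HFD range. Nr4a1 changed by -1.19 (SE 0.29, edgeR adjusted p 0.0465), and this call held in 5 of 20 alternatives. With the lymphocyte score as a covariate none of the 8 genes passed, and neither did any other of the 18548 genes.

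**Figure D5:**
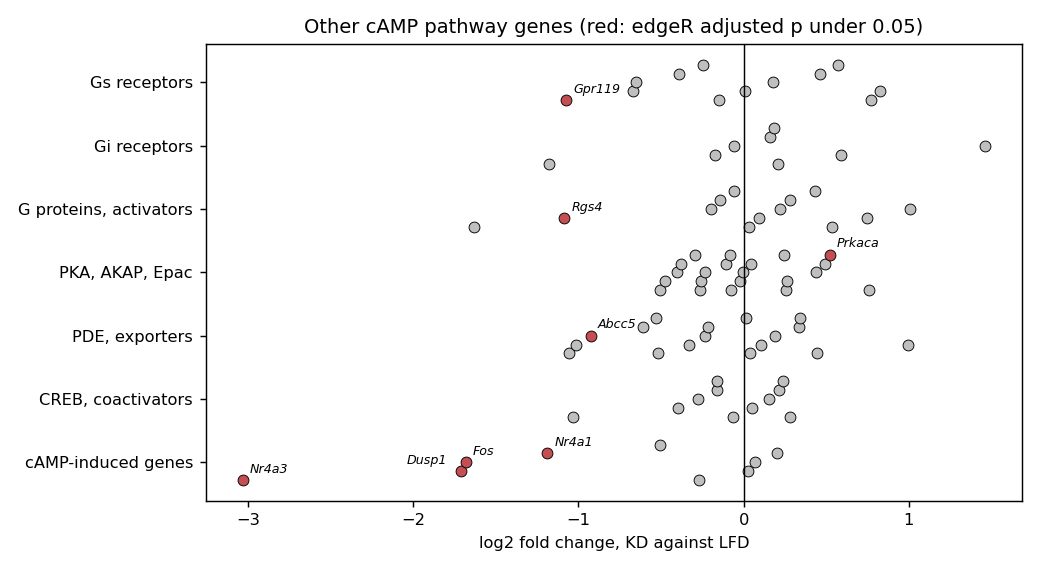
KD minus LFD log2 fold changes (horizontal axis) of the 91 tested cAMP pathway genes in their 7 groups (vertical axis), with genes past the edgeR threshold in red. Prkaca (0.52) is the called gene to the right of 0, and Fos, Dusp1, Nr4a3 and Nr4a1 in the bottom group lie between -3.03 and -1.19.

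In the other contrasts edgeR called 0 pathway genes. For HFD against LFD, 12 of the 91 had an unadjusted p below 0.05 (9.99% of all genes), DESeq2 called 4 (1.45%) and limma-voom 0 (0.0593%). The lowest p-values belonged to Fos (log2 fold change -0.98, edgeR adjusted p 0.240), Dusp1 (-1.36, 0.246), Sik1 (-1.34, 0.257), a salt-inducible kinase, and Irs2 (-0.77, 0.263), an insulin signalling adaptor. For KD against HFD, 28 had an unadjusted p below 0.05 (22.7% of all genes), DESeq2 called 13 (8.19%) and limma-voom 0 (0.0%). The lowest p-values belonged to Abcc5 (-0.80), Rgs4 (-0.91), Vipr1 (0.67), a receptor for vasoactive intestinal peptide, and Crtc1 (0.57), a CREB coactivator, each with an edgeR adjusted p of 0.124.

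The genes whose log2 CPM followed Adcy1 most closely over the 9 libraries were sought among 10426 named genes with a mean of at least 5 CPM. They were Cog7, a subunit of a Golgi tethering complex (r = 0.95), Ccdc127 (0.94), Ankrd40 (0.94), Samd10 (0.94) and Aldh5a1, which completes the breakdown of the transmitter GABA (0.93). These are Pearson values given as a description, and the diets themselves set much of them, since with diet means removed they ran from 0.51 to 0.85. The mean ± SD of Cog7 was 35.8 ± 0.839 CPM over the 3 LFD libraries, 39.2 ± 1.93 over the 2 HFD libraries and 55.4 ± 6.89 over the 4 KD libraries.

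The genes most like Adcy7 were Klf6, Bicc1, Itga4, Spon1 and Pfkfb3, with r from 0.97 to 0.98 over the 9 libraries and from 0.90 to 0.95 with diet means removed. Itga4, an integrin subunit, had a mean ± SD of 15.98 ± 6.786 CPM over the 3 LFD libraries, 5.19 ± 0.190 over the 2 HFD libraries and 2.83 ± 1.06 over the 4 KD libraries. Klf6, a transcription factor gene induced early after injury, measured 101 ± 20.5, 46.1 ± 9.47 and 38.0 ± 12.1 CPM in the same order (SD). Bicc1 measured 61.04 ± 9.141, 40.57 ± 4.038 and 34.58 ± 8.236 CPM in that order (SD). For Spon1 the values were 29.73 ± 5.201, 17.5 ± 2.058 and 13.05 ± 4.25 CPM, and for Pfkfb3 26.04 ± 5.179, 14.56 ± 3.464 and 12.83 ± 3.715 CPM (SD).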

How the data were processed

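The authors deposited raw counts per Ensembl gene, and each column was matched to a sample by the identifier in its title. The submitters' processing notes name cutadapt 1.16, STAR 2.7.9a, featureCounts 1.6.3, DESeq2 1.40.2 and GRCm39, without roles. The annotation and strand setting are not given in the sources used here. Symbols came from the supplied gene names (51948 of 56941 rows matched) and exon lengths from GENCODE M21, on GRCm38, used for lengths alone.

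Counts were fitted with edgeR 4.0.16 in R 4.3.3 (filterByExpr by diet, TMM, robust glmQLFit and glmQLFTest, two-sided), with all 9 libraries sharing 1 estimate of spread. P-values were adjusted by Benjamini-Hochberg over 18548 genes. The SE is the log2 fold change over the square root of F. Alternatives were run with DESeq2 1.42.0, limma 3.58.1, other scalings, filters and covariates, and without each library. The scores are mean log2 CPM of the 20 acinar or 12 lymphocyte markers (prior count 2). On simulated data for KD against LFD (18007 genes, 200 changed), edgeR recovered 61% of 2-fold and 98% of 4-fold changes, with 13 false calls. The changed genes had a mean of at least 5 CPM, so these rates do not cover Adcy2 or Adcy8. Differences in acinar or other tissue content were not simulated. The labels name no batches, so whether any batch lines up with diet is not known.

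The members and lists were chosen with earlier results of these data known. Pathway genes were named when past the threshold (up to 8 with the lowest p), or else as the 4 with the lowest p, and the 5 genes most correlated with Adcy1 or with a called member were named. Protein sequences were not used here.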

Additional observations from a re-analysis of the deposited data

Results flagged for a closer look

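In KD, the diet with 4 samples, the highest or lowest library was compared with the others for 21 genes, and 3 genes had a library set apart by a wide gap. Chance alone marks about 1 in 20 such groups. Adcy9 was 69.3 CPM in KD replicate 4, below the 79.7 to 81.0 CPM of the other KD libraries. Nr4a3 was 1.03 CPM in KD replicate 4, where the others had 1.47 to 1.56 CPM. Nr4a1 was 19.8 CPM in KD replicate 1, below the 30.7 to 31.7 CPM of the others.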

How the results depend on the processing

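The counts past the threshold of members other than Adcy1 (1 of 8 for KD against LFD, 0 elsewhere) and of cAMP pathway genes (8, 0 and 0 of 91) were recomputed under 20 alternatives, and the share of all genes called stands in brackets. For KD against LFD the members' count was 0 with the lymphocyte score (0.0%) and 0 to 1 without each library in turn. The pathway count was 15 on raw library size (8.91%), 14 with DESeq2 (9.57%), 15 with limma-voom (10.1%), 21 with the acinar score (7.79%), 0 with the lymphocyte score (0.0%) and 3 to 16 without each library (0.822% to 7.4%). For HFD against LFD the pathway count was 4 with DESeq2 (1.45%), 1 with no filter on low counts (0.261%) and 0 to 4 without each library (0.0% to 1.06%). For KD against HFD the members' count was 1 on raw library size (Adcy4, 8.36%). The pathway count there was 10 on raw library size (8.36%), 13 with DESeq2 (8.19%), 3 with no filter (1.02%) and 0 to 15 without each library (0.0% to 9.84%).

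Replicate numbers are shared between diets, but same-numbered libraries deviated together with correlations of only -0.016 to 0.222, so the numbers were not taken as pairs. With the replicate number as a block, the pathway counts were 16 for KD against LFD (10.8%), 4 for HFD against LFD (2.13%) and 21 for KD against HFD (12.5%). The members' counts under the block were 1 (Adcy7), 1 (Adcy7, edgeR adjusted p 0.0316) and 1 (Adcy5) in the same order.

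The KD minus LFD log2 fold change of Adcy1 ran from 2.17 to 2.63 without each library and was 1.98 on raw library size. Raw library size moved the median of all genes to -0.59, 0.20 and -0.81 in the 3 contrasts, and the mean of Adcy1 on HFD to 6.01 CPM (3.48 to 5.55 without each HFD library).

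Some log2 fold changes turned sign, among them those of 5 called genes (Adcy7, Nr4a3, Rgs4 and Nr4a1 with the lymphocyte score, Prkaca on raw library size). On raw library size, the KD minus LFD value was -0.63 for Adcy2, -0.10 for Adcy3, -0.49 for Adcy6, -0.19 for Adcy8, -0.47 for Adcy9 and -0.050 for Prkaca. The KD minus HFD value was -0.39 for Adcy2, -0.49 for Adcy3, -0.16 for Adcy5, -0.38 for Adcy6, -0.71 for Adcy8, -0.69 for Adcy9, -0.13 for Vipr1 and -0.26 for Crtc1. With the acinar score, KD minus LFD was -0.24 for Adcy2 and -0.10 for Adcy6, and HFD minus LFD was -0.13 for Adcy8 and -0.049 for Adcy9. In the same fit KD minus HFD was -0.020 for Adcy2, -0.13 for Adcy5 and -0.0036 for Adcy6, but this score does not overlap between KD and HFD.

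With the lymphocyte score, which separates LFD from the other diets without overlap, KD minus LFD was -0.11 for Adcy2, 1.55 for Adcy4, 0.39 for Adcy5, 0.14 for Adcy7, -0.14 for Adcy8, -0.37 for Adcy9, 0.91 for Nr4a3, 0.0072 for Rgs4 and 0.86 for Nr4a1. HFD minus LFD was 0.24 for Adcy7, -0.072 for Adcy8 and -0.37 for Adcy9, and KD minus HFD was -0.069 for Adcy8. The block gave 0.017 for Adcy5, KD minus LFD. The HFD minus LFD value of Adcy9 (0.0072) was -0.0147 with DESeq2 size factors, -0.0155 with TMM without acinar and hormone genes, -0.0148 with DESeq2, -0.011 with the stricter filter and -0.0024 with only those diets fitted.

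Without each library in turn, values spanned 0 for Adcy2 (-0.16 to 0.16) and Adcy5 (-0.35 to 0.14) in KD minus LFD. They did so for Adcy3 (-0.049 to 0.38), Adcy8 (-0.42 to 0.76) and Adcy9 (-0.24 to 0.22) in HFD minus LFD, and for Adcy8 (-0.40 to 0.78) and Adcy9 (-0.072 to 0.39) in KD minus HFD. The cause of these changes was not tested. The stricter filter left no value for Adcy2 and Adcy8. Adcy8 had 6 to 30 counts per library. HFD rests on 2 libraries, so a lone library left there is assumed to vary like the other diets.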
